A study of Schizosaccharomyces pombe with 12 samples.

Results

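The comparison asks where the transcriptional response to LatA differed between *rpb1-12XS2ACTD* and *rpb1-12XCTD* cells of *S. pombe*. For each probe set, the LatA minus DMSO change in *rpb1-12XCTD* cells was subtracted from the LatA minus DMSO change in *rpb1-12XS2ACTD* cells. The result, on the log2 scale, is called the strain difference below. A positive strain difference means that the LatA change was more positive (or less negative) in *rpb1-12XS2ACTD* cells. All 4875 *S. pombe* probe sets of the array and all 12 arrays of the series entered the comparison, and the word gene stands for a probe set in what follows.

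The 4 groups of cultures, with 3 biological replicates in each, were *rpb1-12XS2ACTD* cells in LatA, *rpb1-12XS2ACTD* cells in DMSO, *rpb1-12XCTD* cells in LatA and *rpb1-12XCTD* cells in DMSO. LatA was present at 0.5 µM for 3 h and DMSO is its solvent. Both strains carry a shortened *rpb1* gene with 12 heptad repeats in place of the full CTD, marked with *ura4*, in a *ura4-D18 leu1-32* h- background, so the *rpb1-12XCTD* cells are not wild type. Serine 2 of each repeat is alanine in *rpb1-12XS2ACTD* and unaltered in *rpb1-12XCTD*. No source used here says that more than one isolate of either strain was used.

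The CTD is the tail of Rpb1p, the largest subunit of RNA polymerase II. It consists of repeats of a short heptad, and serine 2 of the heptad is phosphorylated as the polymerase moves into the body of a gene. In fission yeast the Lsk1p kinase, with its cyclin Lsc1p and the subunit Lsg1p, phosphorylates this residue. LatA (latrunculin A) sequesters actin monomers, so that actin filaments and the contractile ring assemble less well. Cells of fission yeast that are stressed induce a core set of protective genes, and starved cells of opposite mating type switch on a sexual programme driven by the transcription factor Ste11p.

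Each probe set in the deposited table has a median of 0 over the 12 arrays, so a value is a deviation on the log2 scale from that median. Levels cannot be compared between genes, and the mating type of the cells cannot be checked from the level of mating genes. The *rpb1* probe set does not tell the alleles apart. Its values were −0.01, −0.13 and 0.01 with LatA and −0.10, −0.45 and −0.05 with DMSO in *rpb1-12XS2ACTD* cells, against 0.13, 0.14 and 0.20 with LatA and 0.20, −0.29 and 0.01 with DMSO in *rpb1-12XCTD* cells. Its strain difference was −0.02 ± 0.184 (SE), and it gives no check of the labels.

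The replicates were not equally close in the 4 groups. Over all genes, the median SD between replicates was 0.0779 and 0.0974 in *rpb1-12XS2ACTD* cells with LatA and DMSO. It was 0.0684 and 0.195 in *rpb1-12XCTD* cells with LatA and DMSO. The array medians of the *rpb1-12XCTD* DMSO cultures were −0.164, −0.105 and 0.0697, while those of the other 9 arrays lay between −0.0276 and 0.0369. The strain difference carries this offset: its median over all genes was −0.12, and 77.5% of genes had a value below 0. The median moved to −0.03 when each array was centred on its own median, and to 0.01 after quantile normalization of the deposited values. The values of gene groups below are therefore also given relative to the median of all genes.

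The LatA responses of the strains were alike in outline. Across genes, which are not independent replicates, the LatA changes correlated with r = 0.831, and a line of the change in *rpb1-12XS2ACTD* on that in *rpb1-12XCTD* had a slope of 0.805. With limma, and the thresholds of 0.05 on the Benjamini-Hochberg adjusted p over all genes and 1.5 on the fold change, LatA raised 299 genes (6.13%) and lowered 262 (5.37%) in *rpb1-12XS2ACTD* cells. In *rpb1-12XCTD* cells it raised 516 genes (10.6%) and lowered 126 (2.58%). The median LatA change over all genes was −0.01 in *rpb1-12XS2ACTD* and 0.10 in *rpb1-12XCTD*, so these counts carry the offset of the *rpb1-12XCTD* DMSO arrays too. How far it shaped them was not tested. The 339 genes called in both strains moved in the same direction in all cases. A further 222 were called in *rpb1-12XS2ACTD* alone and 303 in *rpb1-12XCTD* alone, but a call in one strain and not in the other does not show that the strains differ, which the strain difference itself tests.

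By that test 1 of 4875 genes (0.0205%) had a strain difference past an adjusted p under 0.05 and a ratio of fold changes over 1.5, and it was *nmt1*. The next lowest adjusted p was 0.193. At an unadjusted p under 0.05, with the same ratio, 134 genes were found (2.75%), and 536 genes (11%) had an unadjusted p under 0.05 at any size. Of the 134 genes, 22 had a positive strain difference (0.451% of all genes) and 112 a negative one (2.3%). The share of negative values among them was 83.6%, but median centring gave 67.3% and quantile normalization gave 50.4%. The 134 genes are a description with no control of the false discovery rate, and they are called the unadjusted set below. The median SE of the strain difference was 0.154 and the median half-width of its 95% interval was 0.339, with 3 arrays a group.

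In the unadjusted set the most common pattern was a gene with a positive LatA change in *rpb1-12XCTD* and a negative one in *rpb1-12XS2ACTD* (58 genes). This count carries the offset of the *rpb1-12XCTD* DMSO arrays and was not repeated after centring. A positive LatA change in both strains, smaller in *rpb1-12XS2ACTD*, was found for 41 genes. In 13 genes both changes were negative and the one in *rpb1-12XS2ACTD* was larger. The patterns with a positive strain difference were rarer, with 8 genes positive in *rpb1-12XS2ACTD* and negative in *rpb1-12XCTD*, 7 positive in both and larger in *rpb1-12XS2ACTD*, and 7 negative in both and smaller there. For 94 of the 134 genes the genotype difference was larger in size with LatA than with DMSO, and for 40 it was larger with DMSO. The LatA change itself was called in both strains for 13 of them, in *rpb1-12XS2ACTD* alone for 31, in *rpb1-12XCTD* alone for 48 and in neither for 42.

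**Figure D1:**
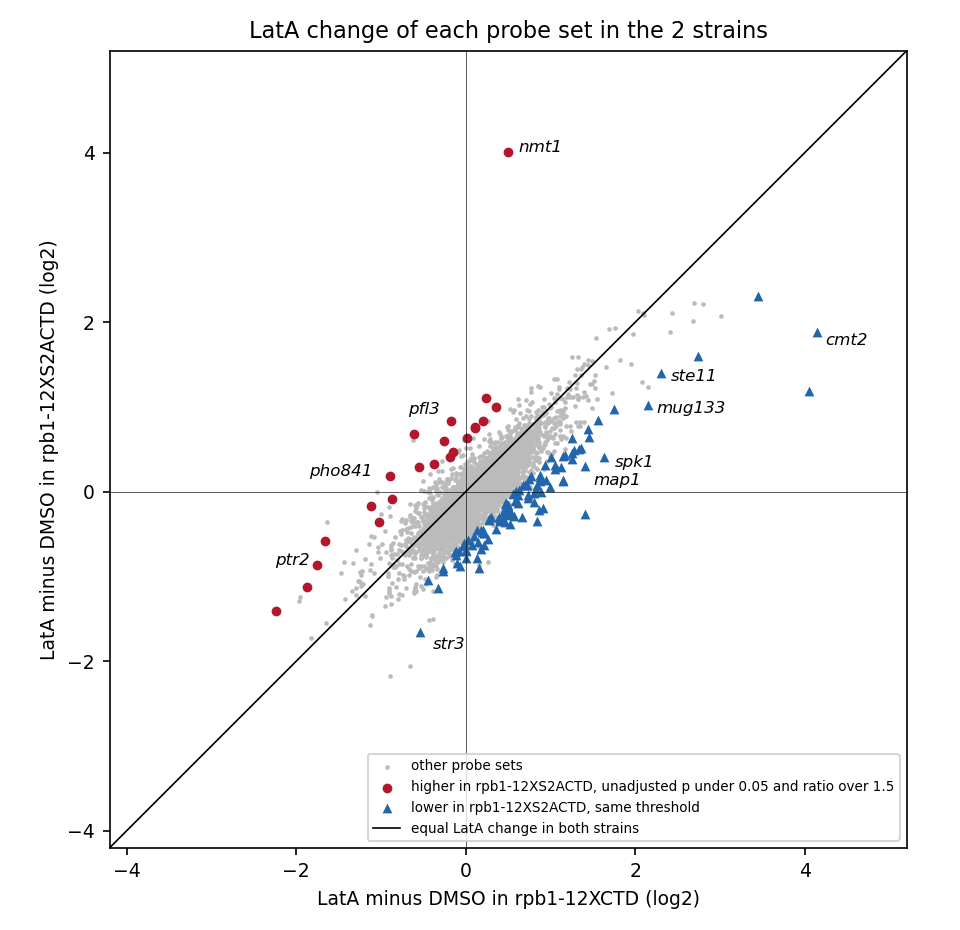
LatA minus DMSO change of each of 4875 probe sets on the log2 scale, in *rpb1-12XS2ACTD* (vertical axis) against *rpb1-12XCTD* (horizontal axis). Red circles and blue triangles are the 22 genes with a positive and the 112 with a negative strain difference at an unadjusted p under 0.05 and a ratio over 1.5, and *nmt1* lies far above the line of equal change.

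The count of genes called depended on a single array. It was 52 without replicate 3 of the *rpb1-12XCTD* DMSO cultures, the array with the highest median of that group, and 47 of these were negative. It was 3 without replicate 1 of the *rpb1-12XS2ACTD* DMSO cultures, and 1 without any other array. With both of these arrays left out it was 89, of which 81 were negative. In the unadjusted set the count ran from 79, without replicate 1 of the *rpb1-12XCTD* DMSO cultures, to 302, without replicate 3 of that group. It was 247 without replicate 2. Quantile normalization gave 19 genes, 11 positive and 8 negative.

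The *nmt1* gene encodes an enzyme of the thiamine pathway, which makes the pyrimidine part of thiamine, and its transcription is repressed when thiamine is present. Its values were 4.94, 4.19 and 4.33 with LatA and −0.08, 0.67 and 0.85 with DMSO in *rpb1-12XS2ACTD* cells, against 0.08, −0.09 and −0.27 with LatA and −0.69, −0.63 and −0.47 with DMSO in *rpb1-12XCTD* cells. No 2 of the 4 groups overlapped except *rpb1-12XS2ACTD* with DMSO and *rpb1-12XCTD* with LatA, whose ranges met between −0.08 and 0.08. LatA raised *nmt1* by 4.01 (16.1-fold, adjusted p = 1.48e-05 by limma) in *rpb1-12XS2ACTD* cells, while its change in *rpb1-12XCTD* cells was 0.50 (1.42-fold, adjusted p = 0.122). The strain difference was 3.50 ± 0.335 (SE), a ratio of 11.4 between the fold changes (95% interval on the log2 scale 2.77 to 4.24, adjusted p = 0.00221 by limma). Seen from the other side, the genotype difference was 4.58 with LatA and 1.08 with DMSO. The value lay between 3.23 and 3.69 with any single array left out, always past the threshold, and was 2.38 after quantile normalization (adjusted p = 0.023). The call was lost with a weight per group (adjusted p = 0.0512) and with the ordinary per-gene test (adjusted p = 0.0804). It was also lost in limma with a variance trend over the mean of the centred values and the robust option together (adjusted p = 0.85). The trend without the robust option was not run.

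Of the other 9 genes of the thiamine list none was in the unadjusted set (against 2.75% of all genes). The lowest unadjusted p among them belonged to *thi9*, a thiamine transporter, with a strain difference of −0.52 ± 0.199 (SE) and an adjusted p of 0.426. For *thi5*, a transcription factor of this pathway, the strain difference was 0.17. The median over the 10 genes was −0.17, which is −0.05 relative to all genes.

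Apart from *nmt1*, the 10 positive named genes with the smallest p were *pfl3*, *ptr2*, *hhy1*, *hsr1*, *fah1*, *pho841*, *cox17*, *SPBC19C7.11* and *dea2*. *pfl3* encodes a flocculin, a glycoprotein of the cell surface. Its values were 1.23, 0.95 and 1.08 with LatA and −0.04, 0.35 and 0.43 with DMSO in *rpb1-12XS2ACTD* cells, against −0.39, −0.20 and −0.15 with LatA and −0.21, 0.00 and 0.00 with DMSO in *rpb1-12XCTD* cells. The LatA treated *rpb1-12XS2ACTD* cultures were above all others. LatA raised *pfl3* by 0.84 in *rpb1-12XS2ACTD* cells (adjusted p = 0.00104), its change in *rpb1-12XCTD* cells was −0.18, and the strain difference was 1.01 ± 0.182 (SE, unadjusted p = 0.000162, adjusted p = 0.193 by limma).

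*pho841*, annotated as an inorganic phosphate transporter, showed a pattern in which the *rpb1-12XCTD* cells alone passed the test. Its values were 0.34, 0.06 and 0.29 with LatA and −0.17, 0.22 and 0.09 with DMSO in *rpb1-12XS2ACTD* cells, against −1.23, −0.93 and −0.97 with LatA and −0.53, 0.15 and −0.06 with DMSO in *rpb1-12XCTD* cells. The LatA treated *rpb1-12XCTD* cultures were thus the low ones. LatA lowered *pho841* by 0.90 in *rpb1-12XCTD* cells (adjusted p = 0.00205), against a change of 0.18 in *rpb1-12XS2ACTD* cells, and the strain difference was 1.08 ± 0.235 (SE, adjusted p = 0.193). The phosphate transporter gene *pho84* had a strain difference of the opposite sign, −0.49 ± 0.215 (SE, adjusted p = 0.446), with LatA changes of −0.70 in *rpb1-12XS2ACTD* and −0.21 in *rpb1-12XCTD*.

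*ptr2* encodes a peptide transporter, and LatA lowered it in both strains. Its values were −0.33, −0.59 and −0.38 with LatA and 0.44, 0.38 and 0.47 with DMSO in *rpb1-12XS2ACTD* cells, against −1.42, −1.34 and −1.01 with LatA and 0.33, 0.48 and 0.67 with DMSO in *rpb1-12XCTD* cells. The DMSO cultures of the strains overlapped, while the LatA cultures of *rpb1-12XS2ACTD* lay above those of *rpb1-12XCTD*. LatA lowered it by 0.87 in *rpb1-12XS2ACTD* and by 1.75 in *rpb1-12XCTD*, and the strain difference was 0.88 ± 0.172 (SE, adjusted p = 0.193). *SPBC19C7.11*, annotated as a ClC chloride channel, fell by 1.02 in *rpb1-12XCTD* (adjusted p = 0.000146), against a change of −0.36 in *rpb1-12XS2ACTD*, with a strain difference of 0.66. For *dea2*, an adenine deaminase, the changes were −0.16 and −0.58 and the strain difference 0.42, which is under the ratio of 1.5.

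The genes *hhy1*, *fah1*, *cox17* and *hsr1* had LatA changes of 0.29 to 0.63 in *rpb1-12XS2ACTD* cells. *hhy1*, annotated as a chlorohydrolase or deaminase, had values of 1.08, 1.05 and 1.02 with LatA and 0.19, 0.48 and 0.70 with DMSO in *rpb1-12XS2ACTD* cells, against −0.39, −0.49 and −0.67 with LatA and −0.19, −0.41 and −0.19 with DMSO in *rpb1-12XCTD* cells. Here the strains were apart already with DMSO, by 0.72, and further apart with LatA, by 1.57, with a strain difference of 0.85 ± 0.175 (SE). LatA raised *fah1*, a predicted acetamidase, by 0.63 in *rpb1-12XS2ACTD* cells (adjusted p = 0.000854), against a change of 0.01 in *rpb1-12XCTD* cells. *cox17*, whose product carries copper to cytochrome oxidase, had values of 0.44, 0.54 and 0.46 with LatA and 0.01, −0.01 and 0.02 with DMSO in *rpb1-12XS2ACTD* cells, against −0.17, −0.16 and −0.19 with LatA and −0.11, −0.21 and 0.25 with DMSO in *rpb1-12XCTD* cells. Its strain difference was 0.62 ± 0.143 (SE), and its LatA change of 0.47 in *rpb1-12XS2ACTD* was under the fold threshold. *hsr1*, a zinc finger transcription factor of the stress response, had a LatA change of 0.29 in *rpb1-12XS2ACTD* and of −0.55 in *rpb1-12XCTD*, with a strain difference of 0.84 ± 0.175 (SE). The adjusted p of the strain difference was 0.193 for *hhy1*, *hsr1* and *fah1* and 0.218 for *cox17*.

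**Figure D2:**
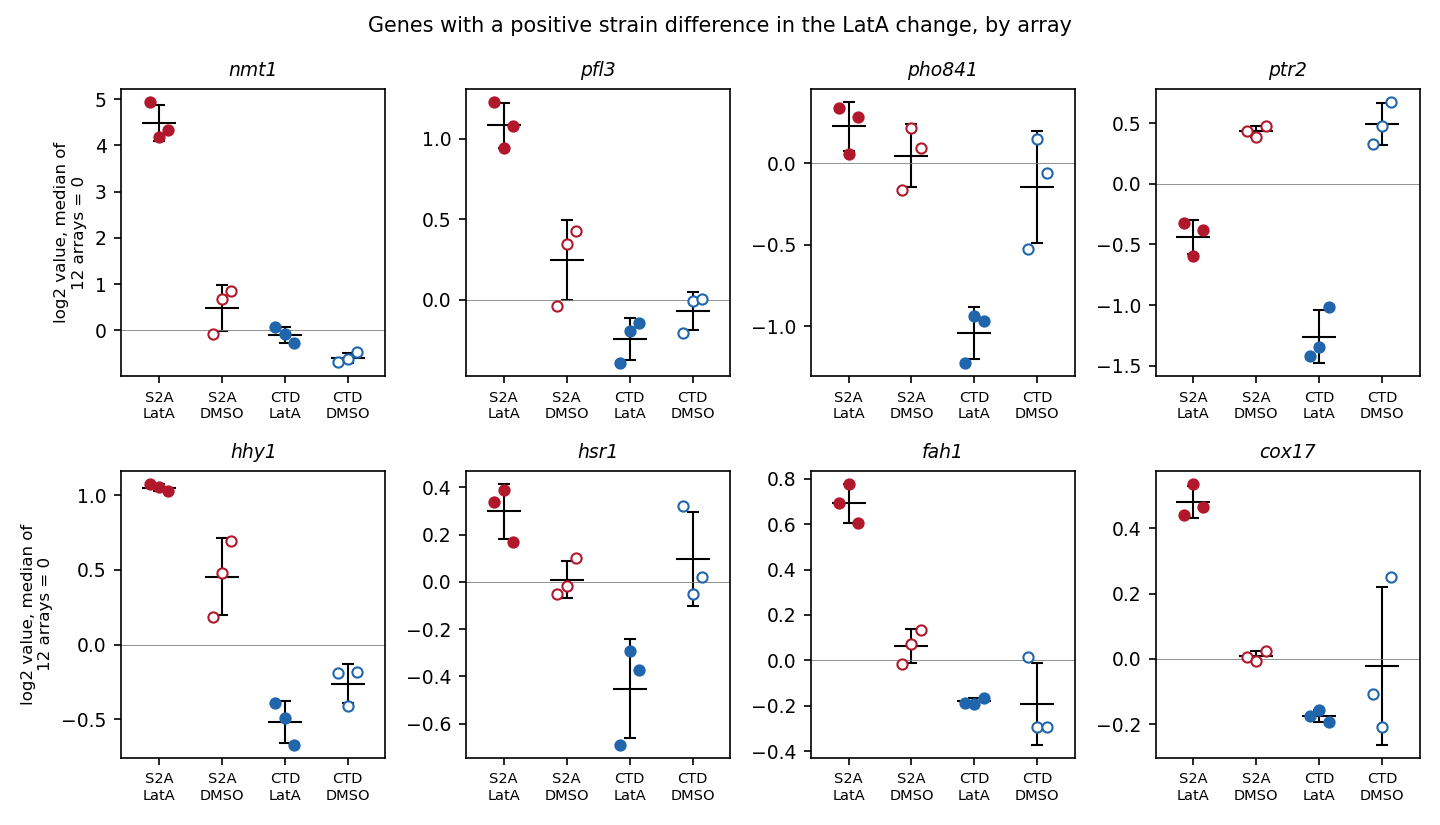
Values of 8 genes with a positive strain difference on the log2 scale, by array (points: 3 replicates a group, filled with LatA and open with DMSO; bars: mean and SD), with *rpb1-12XS2ACTD* (S2A, red) to the left of *rpb1-12XCTD* (CTD, blue). The LatA treated *rpb1-12XS2ACTD* cultures of *nmt1* lie between 4.19 and 4.94, above all other cultures, and those of *ptr2* and *pho841* lie above the LatA treated *rpb1-12XCTD* cultures.

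Genes of the pheromone response and of sexual differentiation were among the negative genes of the unadjusted set. Their list was chosen with earlier results of these data known, which can favour a high count. The pheromone of the opposite mating type is bound by a receptor that acts through the G protein subunit Gpa1p and the kinases Byr2p, Byr1p and Spk1p, and Ste11p switches on the genes of mating and meiosis, *mei2* among them. Of the 32 genes of this list, 6 were in the unadjusted set, all of negative sign (18.8% of the list, against 2.3% of all genes), and none passed the adjusted test. The 6 are *byr1*, *gpa1*, *spk1*, *mei2*, *ste11* and *ste4*. LatA raised 6 of the 32 genes in *rpb1-12XS2ACTD* cells (against 6.13% of all genes) and 14 in *rpb1-12XCTD* cells (against 10.6%). It lowered none in *rpb1-12XS2ACTD* cells (against 5.37%) and 1 in *rpb1-12XCTD* cells (against 2.58%). The median strain difference of the list was −0.20, which is −0.08 relative to all genes, so the list as a whole lay close to the rest. Between 5 and 7 of its genes were in the unadjusted set with any single array left out, and 6 negative and 1 positive after quantile normalization.

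*ste11* had values of 0.44, 0.33 and 0.32 with LatA and −0.75, −1.21 and −1.16 with DMSO in *rpb1-12XS2ACTD* cells, against 1.88, 1.61 and 1.39 with LatA and −0.54, −1.15 and −0.32 with DMSO in *rpb1-12XCTD* cells. LatA raised it in both strains, by 1.40 in *rpb1-12XS2ACTD* (adjusted p = 0.000806) and by 2.30 in *rpb1-12XCTD* (adjusted p = 7.99e-05). The strain difference was −0.90 ± 0.286 (SE, adjusted p = 0.381 by limma), and the LatA cultures of the strains did not overlap while the DMSO cultures did.

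For *mei2*, which encodes an RNA-binding protein needed for meiosis, the LatA cultures had values of 0.04, 0.13 and −0.06 in *rpb1-12XS2ACTD* and of 1.05, 0.56 and 0.37 in *rpb1-12XCTD*. The DMSO cultures had values of 0.24, −0.06 and −0.04 in *rpb1-12XS2ACTD* and of −0.09, −0.09 and −0.25 in *rpb1-12XCTD*. LatA raised *mei2* by 0.80 in *rpb1-12XCTD* (adjusted p = 0.00227), while the change in *rpb1-12XS2ACTD* was −0.01 (adjusted p = 0.966), and the strain difference was −0.81 ± 0.215 (SE, adjusted p = 0.328).

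*spk1*, the MAP kinase of the pathway, had values of 0.41, 0.50 and −0.03 with LatA and −0.11, −0.11 and −0.14 with DMSO in *rpb1-12XS2ACTD* cells, against 1.47, 1.05 and 1.21 with LatA and −0.58, −0.63 and 0.03 with DMSO in *rpb1-12XCTD* cells. Replicate 3 of the *rpb1-12XCTD* DMSO cultures stood above its 2 partners. The LatA change was 0.41 in *rpb1-12XS2ACTD* (adjusted p = 0.112) and 1.63 in *rpb1-12XCTD* (adjusted p = 0.000193), and the strain difference was −1.22 ± 0.263 (SE, adjusted p = 0.193), or −1.43 without that replicate.

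*byr1*, the MAP kinase kinase, was raised by LatA in both strains. Its values were 0.38, 0.34 and 0.12 with LatA and −0.47, −0.54 and −0.35 with DMSO in *rpb1-12XS2ACTD* cells, against 1.13, 1.12 and 1.17 with LatA and −0.12, −0.41 and −0.38 with DMSO in *rpb1-12XCTD* cells. The rise was 0.73 in *rpb1-12XS2ACTD* and 1.44 in *rpb1-12XCTD*, and the strain difference −0.71 ± 0.136 (SE, adjusted p = 0.193).

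*gpa1*, the G protein subunit, had values of 0.04, −0.20 and 0.02 with LatA and −0.22, −0.72 and −0.57 with DMSO in *rpb1-12XS2ACTD* cells, against 1.29, 1.20 and 1.24 with LatA and −0.02, −0.12 and 0.11 with DMSO in *rpb1-12XCTD* cells. It was below *rpb1-12XCTD* in both media, by 1.29 with LatA and by 0.49 with DMSO, and its strain difference was −0.80 ± 0.171 (SE, adjusted p = 0.193). *ste4*, whose product acts with Byr2p, had a strain difference of −0.71 ± 0.304 (SE, adjusted p = 0.441), with LatA changes of 0.85 in *rpb1-12XS2ACTD* and 1.56 in *rpb1-12XCTD*. The highest value of the list belonged to *gpa2*, the G protein subunit of glucose sensing, at 0.49 ± 0.159 (SE), with LatA changes of −0.46 in *rpb1-12XS2ACTD* and −0.95 in *rpb1-12XCTD*. Both *ste4* and *gpa2* were named after their values were seen.

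Genes specific to a mating type were measured in the same cells, which are h- (M) in both strains. Of 12 probe sets of M-cell genes, 8 had a strain difference below 0 (66.7%, against 77.5% of all genes). The 12 values reached from −0.83 to 0.30. The median was −0.23, which is −0.11 relative to all genes, and it was 0.03 after quantile normalization. A single one of the 12 was in the unadjusted set, with a negative sign (8.33%, against 2.3% of all genes), and it was *mam2*, the receptor of the P pheromone. Its values were 0.14, 0.14 and −0.01 with LatA and −0.21, −0.12 and −0.27 with DMSO in *rpb1-12XS2ACTD* cells, against 0.99, 0.67 and 0.34 with LatA and −0.59, −0.78 and 0.01 with DMSO in *rpb1-12XCTD* cells. LatA raised it by 1.12 in *rpb1-12XCTD* (adjusted p = 0.00137), against a change of 0.29 in *rpb1-12XS2ACTD* (adjusted p = 0.283), and the strain difference was −0.83 ± 0.274 (SE, adjusted p = 0.398). The probe set named *mat3-Mc*, after the M mating-type gene, can match several genes, so its signal cannot be given to a single one. It rose in both strains, by 0.82 in *rpb1-12XS2ACTD* and by 1.40 in *rpb1-12XCTD*. Its strain difference of −0.58 was just under the ratio of 1.5. *mam1*, which exports the M pheromone, had a strain difference of −0.56 with LatA changes of 0.06 and 0.63.

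In the list of P-cell genes, 4 of 6 values were below 0 (66.7%, against 77.5% of all genes). The median of −0.12 was close to that of all genes (0.005 above it). *map1* alone was in the unadjusted set (16.7%, against 2.3% of all genes). Map1p is a transcription factor that activates genes of P cells. Its values were 0.16, 0.00 and 0.00 with LatA and 0.13, −0.43 and −0.46 with DMSO in *rpb1-12XS2ACTD* cells, against 1.32, 0.88 and 0.90 with LatA and −0.46, −0.14 and −0.52 with DMSO in *rpb1-12XCTD* cells. LatA raised it by 1.41 in *rpb1-12XCTD* (adjusted p = 0.000243), against a change of 0.30 in *rpb1-12XS2ACTD* (adjusted p = 0.202). The strain difference was −1.10 ± 0.244 (SE, adjusted p = 0.196).

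**Figure D3:**
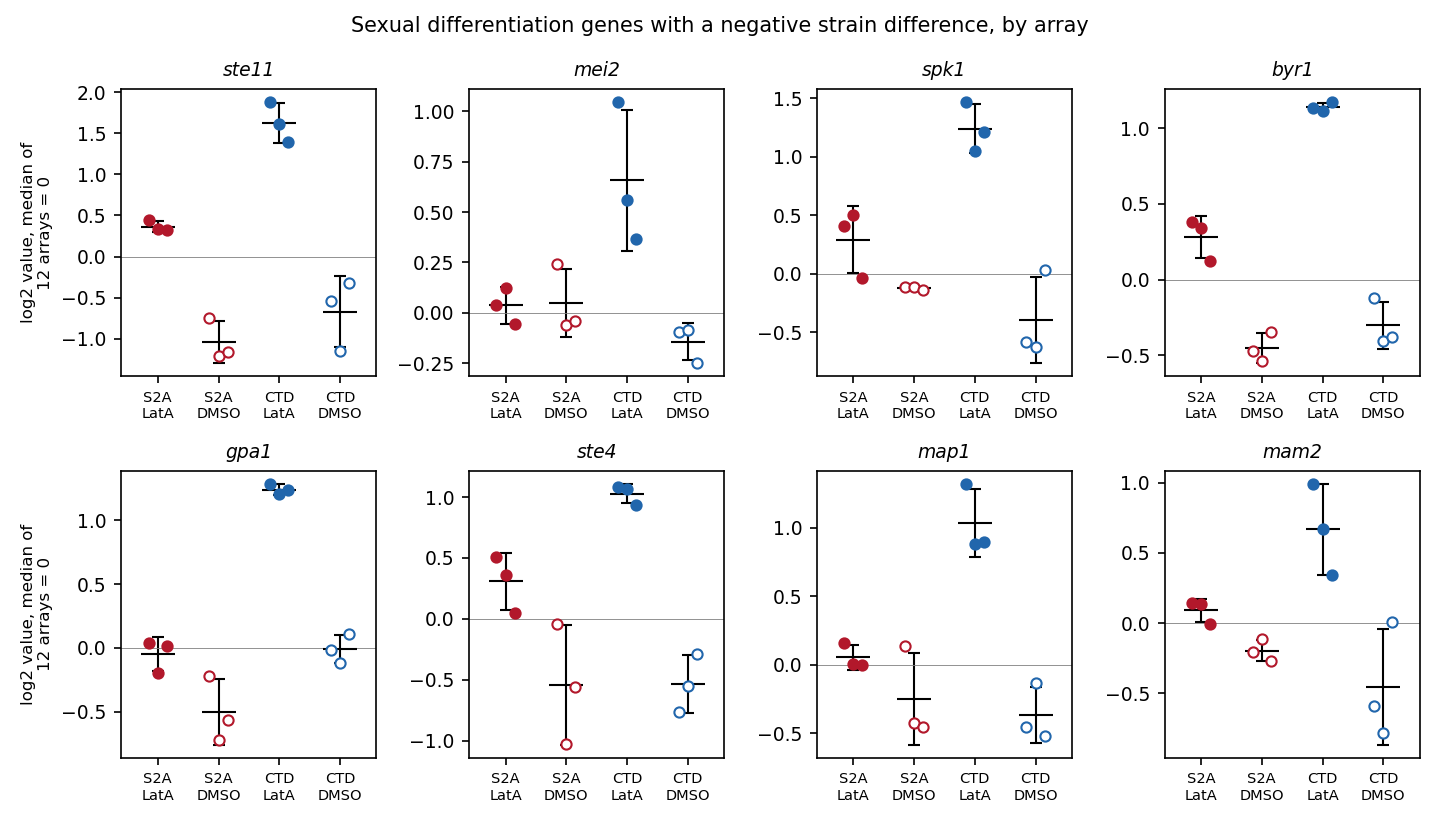
Values of 8 genes of sexual differentiation on the log2 scale, by array (points: 3 replicates a group, filled with LatA and open with DMSO; bars: mean and SD), with *rpb1-12XS2ACTD* (S2A, red) to the left of *rpb1-12XCTD* (CTD, blue). The 8 genes were picked from the unadjusted set for a negative strain difference, and that choice favours the order seen. In every panel the 3 LatA treated *rpb1-12XS2ACTD* cultures lie below the 3 LatA treated *rpb1-12XCTD* cultures, as for *ste11* at 0.32 to 0.44 against 1.39 to 1.88.

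Besides *byr1*, *gpa1* and *spk1*, the 10 negative named genes with the smallest p were *SPBC3F6.01c*, *ppe1*, *rad3*, *swc2*, *knk1*, *mug8* and *SPAC16A10.01*. LatA lowered *SPBC3F6.01c* and *ppe1* in *rpb1-12XS2ACTD* cells, while their changes in *rpb1-12XCTD* cells were 0.08 and −0.11. *SPBC3F6.01c*, annotated as a serine/threonine protein phosphatase, had values of −0.52, −0.77 and −0.70 with LatA and 0.03, −0.01 and −0.10 with DMSO in *rpb1-12XS2ACTD* cells, against 0.13, 0.04 and 0.01 with LatA and −0.18, 0.01 and 0.12 with DMSO in *rpb1-12XCTD* cells. It fell by 0.63 in *rpb1-12XS2ACTD* (adjusted p = 0.000851), and its strain difference was −0.71 ± 0.13 (SE, adjusted p = 0.193). *ppe1*, a phosphatase of the PP6 type, had values of −0.57, −0.73 and −0.73 with LatA and 0.14, −0.03 and −0.04 with DMSO in *rpb1-12XS2ACTD* cells, against 0.09, 0.01 and −0.01 with LatA and 0.09, 0.08 and 0.26 with DMSO in *rpb1-12XCTD* cells. It fell by 0.70 in *rpb1-12XS2ACTD* (adjusted p = 0.000369), and its strain difference was −0.59 ± 0.116 (SE, adjusted p = 0.193). In both genes the LatA treated *rpb1-12XS2ACTD* cultures were below the other 9.

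In *rad3*, *swc2* and *knk1* it was instead the LatA treated *rpb1-12XCTD* cultures that stood above the rest. *rad3* encodes the ATR kinase of the DNA damage checkpoint. Its values were −0.02, −0.03 and −0.24 with LatA and 0.00, 0.00 and 0.05 with DMSO in *rpb1-12XS2ACTD* cells, against 0.59, 0.56 and 0.32 with LatA and −0.06, −0.26 and 0.04 with DMSO in *rpb1-12XCTD* cells. Its strain difference was −0.69 ± 0.142 (SE, adjusted p = 0.193). *swc2*, a subunit of the complex that places the histone variant H2A.Z, rose by 1.05 in *rpb1-12XCTD* (adjusted p = 0.00013), against a change of 0.26 in *rpb1-12XS2ACTD* (adjusted p = 0.0875), with a strain difference of −0.78 ± 0.156 (SE). *knk1*, an ATPase of the AAA family, rose by 0.63 in *rpb1-12XCTD* (adjusted p = 0.000297), against a change of 0.02 in *rpb1-12XS2ACTD* (adjusted p = 0.897), with a strain difference of −0.61 ± 0.113 (SE).

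*mug8* and *SPAC16A10.01*, a conserved protein of the CESR-Up list, had positive LatA changes in both strains. The changes of *mug8* were 0.50 in *rpb1-12XS2ACTD* and 1.28 in *rpb1-12XCTD*, with a strain difference of −0.78 ± 0.167 (SE). Those of *SPAC16A10.01* were 0.42 and 1.14, with a strain difference of −0.72 ± 0.157 (SE). The adjusted p was 0.193 for each of the genes of this and the preceding paragraph. Without replicate 3 of the *rpb1-12XCTD* DMSO cultures, 9 of the 10 named negative genes passed the adjusted test (adjusted p between 0.0417 and 0.0498), *SPAC16A10.01* being the exception at 0.0563.

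**Figure D4:**
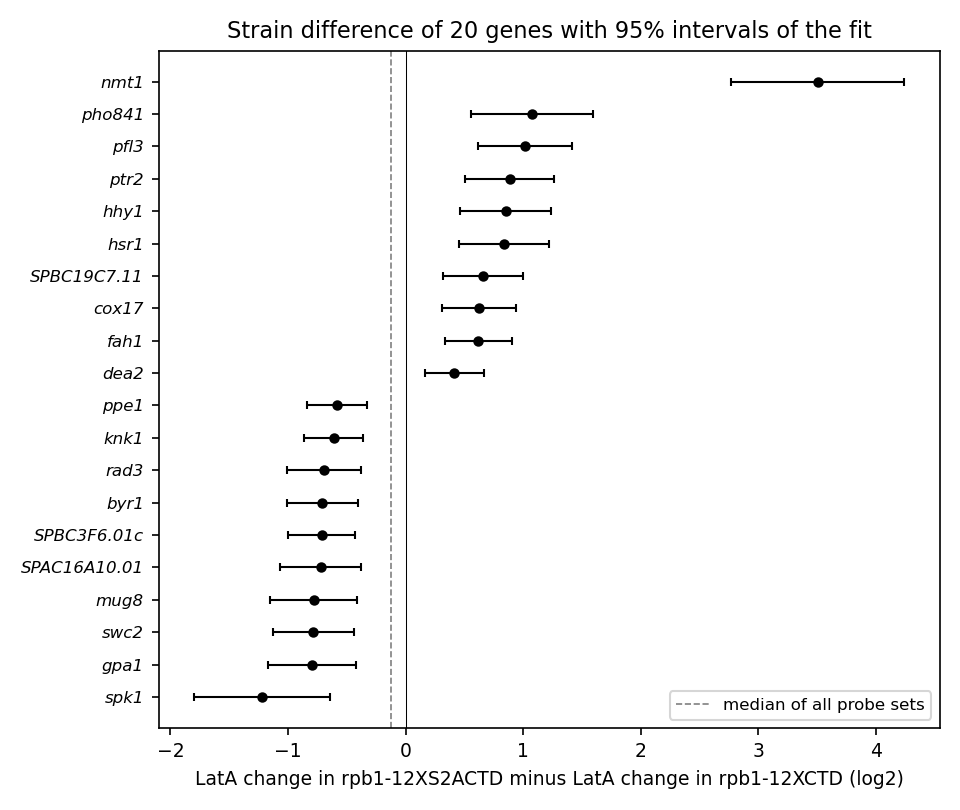
Strain difference on the log2 scale of 10 positive and 10 negative genes (points, with the 95% interval of the fit as bars), beside 0 (solid line) and the median of all genes at −0.12 (dashed line). These genes have the smallest p in each direction among probe sets that have a name and do not cross-match. *nmt1* at 3.50 lies apart from the others, which reach from −1.22 to 1.08.

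The stress response was compared through the lists used by the study. Most stresses induce the 136 CESR-Up genes. LatA raised 60 of them in *rpb1-12XS2ACTD* cells (against 6.13% of all genes) and 67 in *rpb1-12XCTD* cells (against 10.6%). It lowered 5 in each strain, against 5.37% and 2.58% of all genes. The median LatA change of the CESR-Up genes was 0.56 in *rpb1-12XS2ACTD* and 0.53 in *rpb1-12XCTD*. Their median strain difference was 0.003, which is 0.12 above that of all genes. It was 0.19 after quantile normalization. 2 of the 136 (1.47%) were in the unadjusted set, below the share over all genes. They were *SPAC16A10.01* and *rds1*, a stress response gene named after its values were seen, with a strain difference of 1.30 ± 0.532 (SE). The metallothionein gene *zym1* rose by 2.21 in *rpb1-12XS2ACTD* (adjusted p = 0.000452) and by 2.80 in *rpb1-12XCTD* (adjusted p = 9.53e-05). Its values were 0.88, 0.98 and 1.10 with LatA and −1.52, −1.35 and −0.82 with DMSO in *rpb1-12XS2ACTD* cells, against 0.82, 1.71 and 1.82 with LatA and −0.93, −1.58 and −1.55 with DMSO in *rpb1-12XCTD* cells. The strains overlapped in both media, and the strain difference of −0.59 had a 95% interval of −1.43 to 0.26.

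The CESR-Down genes are genes of growth that stress represses. Of 104 genes, LatA lowered 39 in *rpb1-12XS2ACTD* (against 5.37% of all genes) and 10 in *rpb1-12XCTD* (against 2.58%). It raised 1 in *rpb1-12XS2ACTD* (against 6.13%) and 3 in *rpb1-12XCTD* (against 10.6%). Over all genes, too, LatA lowered more in *rpb1-12XS2ACTD* (262) than in *rpb1-12XCTD* (126), and the difference between the counts was not tested. Their median LatA change was −0.53 in *rpb1-12XS2ACTD* and −0.20 in *rpb1-12XCTD*. The median strain difference was −0.30, which is −0.18 relative to all genes, and 91 of the 104 values were below 0 (87.5%, against 77.5% of all genes). In the unadjusted set were 6 genes of negative sign (5.77%, against 2.3% of all genes) and 2 of positive sign (1.92%, against 0.451%). The positive ones were *pfl3* and *pho841*. An example is *ade9*, an enzyme of one-carbon metabolism, which fell by 0.94 in *rpb1-12XS2ACTD* (adjusted p = 0.000484), against a change of −0.27 in *rpb1-12XCTD* (adjusted p = 0.101), with a strain difference of −0.67 ± 0.167 (SE).

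The size of this group difference moved with the *rpb1-12XCTD* DMSO cultures. The median of the CESR-Down genes was −0.09, 0.31 and 0.26 in their replicates, −0.18, −0.22 and −0.26 in *rpb1-12XS2ACTD* with LatA, 0.23, 0.23 and 0.25 in *rpb1-12XS2ACTD* with DMSO, and 0.03, −0.06 and −0.09 in *rpb1-12XCTD* with LatA. Replicate 1 of the *rpb1-12XCTD* DMSO cultures was thus the odd one. Without it the median strain difference was −0.16, and without replicate 2 it was −0.41. The number of genes in the unadjusted set was 4 without replicate 1 and 35 without replicate 2.

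Genes of ribosome biogenesis, many of which are CESR-Down genes, had a median of the same sign. Of 78 genes, LatA lowered 23 in *rpb1-12XS2ACTD* cells (against 5.37% of all genes) and 3 in *rpb1-12XCTD* cells (against 2.58%). It raised none in either strain, against 6.13% and 10.6% of all genes. Values below 0 were found for 76 of the 78 genes (97.4%, against 77.5% of all genes). The median strain difference was −0.37, which is −0.25 relative to all genes. It was −0.16 without replicate 1 of the *rpb1-12XCTD* DMSO cultures and −0.50 without replicate 2. In the unadjusted set were 3 of the 78 genes, all negative (3.85%, against 2.3% of all genes). With single arrays left out this count ran from 0 to 29, and it was 1 after quantile normalization. *rio1*, a kinase of the maturation of the small ribosomal subunit, fell by 0.84 in *rpb1-12XS2ACTD* (adjusted p = 0.00426), against a change of −0.11 in *rpb1-12XCTD* (adjusted p = 0.666). Its values were −0.25, −0.21 and −0.53 with LatA and 0.36, 0.64 and 0.53 with DMSO in *rpb1-12XS2ACTD* cells, against 0.02, −0.05 and −0.02 with LatA and −0.38, 0.40 and 0.24 with DMSO in *rpb1-12XCTD* cells. The strain difference of −0.73 ± 0.242 (SE) had an adjusted p of 0.398 by limma.

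The ribosomal protein genes lay close to 0. Of 134 probe sets of cytosolic ribosomal proteins, none was in the unadjusted set, against 2.75% of all genes. Their strain differences ran from −0.25 to 0.08 with a median of −0.04, 0.08 above that of all genes. The 36 proteasome genes had a median of −0.003, 0.12 above that of all genes, and no gene in the unadjusted set. The 37 genes of heat shock proteins and chaperones had a median of −0.12 (−0.001 relative to all genes) and none in that set either. The 14 probe sets of core histones and their regulator had strain differences from −0.01 to 0.36. Their median was 0.13, which is 0.25 above that of all genes, and all 14 lay above the median of all genes. The median was 0.28 after quantile normalization and between 0.05, without replicate 3 of the LatA treated *rpb1-12XCTD* cultures, and 0.25, without replicate 1 of that group. Their median LatA change was −0.14 in *rpb1-12XS2ACTD* and −0.31 in *rpb1-12XCTD*. None of the 14 was in the unadjusted set (against 2.75% of all genes), and several of the probe sets are cross-matching sets of near-identical genes.

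**Figure D5:**
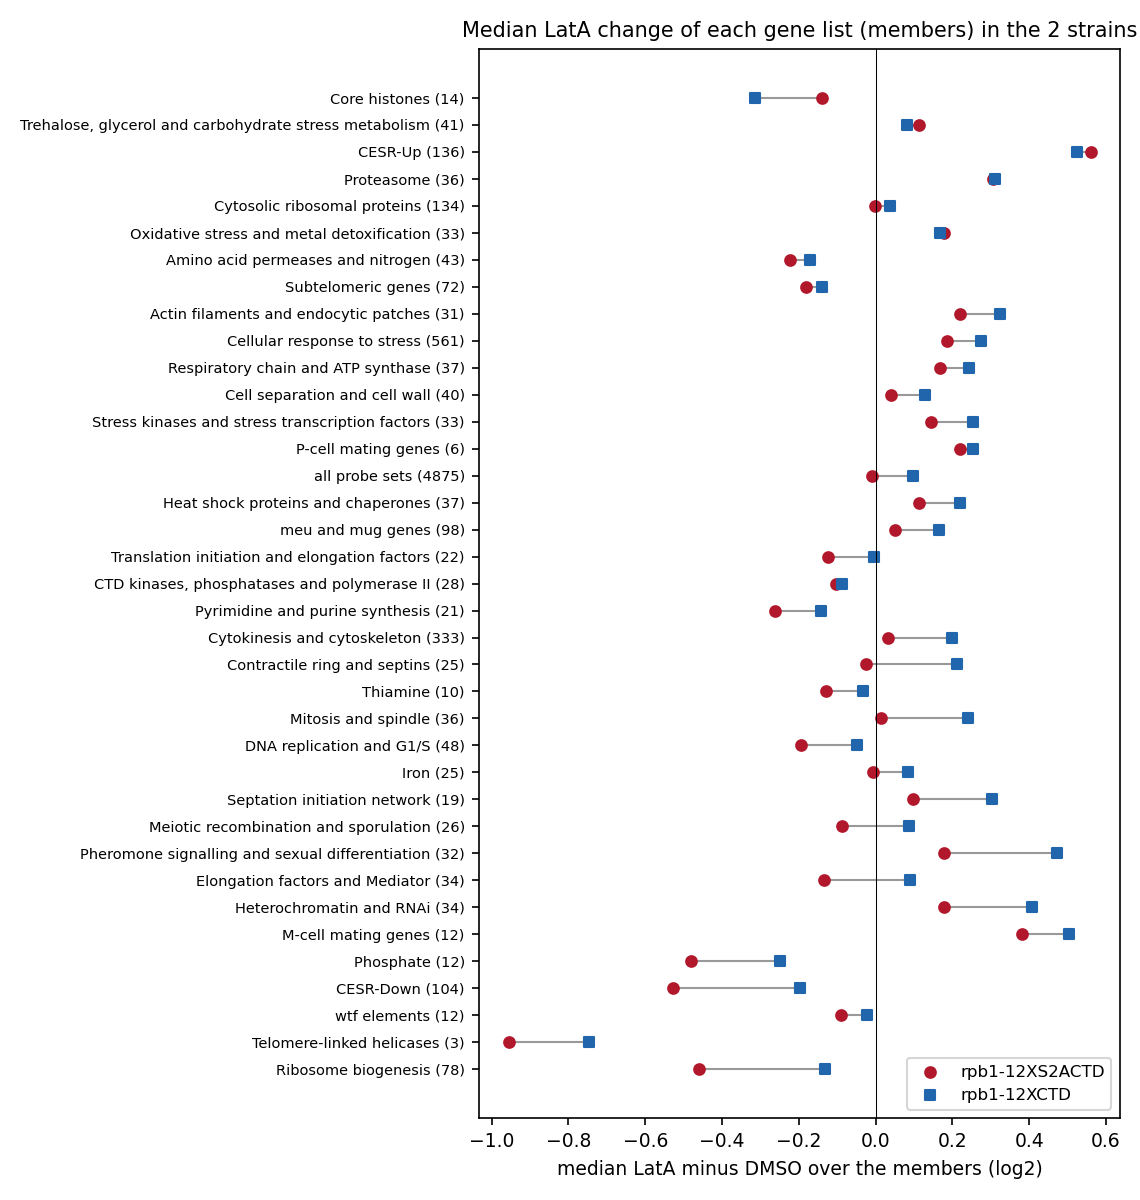
Median LatA minus DMSO change on the log2 scale over the members of each gene list (number of probe sets in brackets) in *rpb1-12XS2ACTD* (red circles) and *rpb1-12XCTD* (blue squares), ordered by the median strain difference. Ribosome biogenesis and CESR-Down genes have the lower median in *rpb1-12XS2ACTD*, at −0.46 and −0.53 against −0.13 and −0.20, while the CESR-Up medians are 0.56 and 0.53.

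LatA acts on actin, and the genes of the cytoskeleton and of cell division were examined for a response of their own. The study's list of cytokinesis and cytoskeleton genes has 333 members here. In *rpb1-12XS2ACTD* LatA raised 11 and lowered 14 of them, against 6.13% and 5.37% of all genes. In *rpb1-12XCTD* it raised 31 and lowered 11, against 10.6% and 2.58% of all genes. The median strain difference was −0.16, which is −0.04 relative to all genes. Of the 333, 4 (1.2%) were in the unadjusted set, all negative, a share below that of all genes. It was 16 without replicate 3 of the *rpb1-12XCTD* DMSO cultures. The 4 are *toe2*, *SPBC651.04*, *mbx1* and *num1*, the last named after its values were seen. *mbx1*, a MADS-box transcription factor of cell separation genes, rose by 0.89 in *rpb1-12XCTD* (adjusted p = 0.00251), against a change of 0.00 in *rpb1-12XS2ACTD* (adjusted p = 0.991), with a strain difference of −0.89 ± 0.244 (SE, adjusted p = 0.328).

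Genes of the study's text with a part in actin dynamics or mitosis had strain differences that did not pass the test. *aip1*, whose product helps to take actin filaments apart, had values of 0.07, −0.13 and −0.22 with LatA and −0.11, −0.76 and −0.80 with DMSO in *rpb1-12XS2ACTD* cells, against 0.79, 0.91 and 0.93 with LatA and 0.01, −0.01 and 0.33 with DMSO in *rpb1-12XCTD* cells. It was below *rpb1-12XCTD* by 0.97 with LatA and by 0.67 with DMSO, and the strain difference was −0.30 (95% interval −0.82 to 0.23, adjusted p = 0.63), or −0.08 without replicate 1 of the *rpb1-12XS2ACTD* DMSO cultures. *nsk1*, a mitotic protein regulated by the phosphatase Clp1p, was above *rpb1-12XCTD* by 0.67 with LatA and by 0.71 with DMSO, with a strain difference of −0.04 (95% interval −0.49 to 0.41). *cut12*, a component of the spindle pole body, was above it by 0.60 with LatA and by 0.54 with DMSO, with a strain difference of 0.06 (95% interval −0.37 to 0.48). The intervals of *nsk1* and *cut12* span both directions, and the sign of these 2 values depended on the processing.

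*clp1* encodes the Cdc14-type phosphatase that delays division while the contractile ring is damaged. Its values were −0.07, −0.07 and −0.37 with LatA and 0.27, 0.27 and 0.28 with DMSO in *rpb1-12XS2ACTD* cells, against 0.07, 0.00 and −0.01 with LatA and −0.05, 0.00 and 0.15 with DMSO in *rpb1-12XCTD* cells. Its strain difference was −0.43 ± 0.127 (SE, unadjusted p = 0.0064, adjusted p = 0.366), under the ratio of 1.5, and the LatA change was −0.44 in *rpb1-12XS2ACTD* (adjusted p = 0.00426, under the fold threshold) and −0.02 in *rpb1-12XCTD*. *cdc7*, a kinase of the Septation Initiation Network, had a strain difference of −0.46 ± 0.137 (SE). None of the 19 genes of that network was in the unadjusted set, against 2.75% of all genes. The same held for 31 genes of actin filaments and endocytic patches and for 25 genes of the contractile ring and septins. The median strain differences of these lists were −0.18, −0.08 and −0.16. Relative to all genes they were −0.06, 0.04 and −0.04, in the same order.

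For the serine 2 kinase complex itself, the strain difference was 0.06 ± 0.184 (SE) for *lsk1*, −0.28 ± 0.128 for *lsc1* and 0.01 ± 0.283 for *lsg1*. *lsk1* was above *rpb1-12XCTD* in *rpb1-12XS2ACTD* cells by 0.59 with LatA and by 0.53 with DMSO, so that the strains were apart by a like amount in both media. *lsc1* had values of −0.28, −0.28 and −0.38 with LatA and 0.26, 0.15 and 0.16 with DMSO in *rpb1-12XS2ACTD* cells, against 0.01, −0.01 and −0.06 with LatA and −0.01, 0.24 and 0.37 with DMSO in *rpb1-12XCTD* cells. Its unadjusted p was 0.0512. The signs for *rpb1*, *lsk1* and *lsg1* depended on the processing. None of 28 genes of CTD kinases, CTD phosphatases and polymerase II subunits was in the unadjusted set, against 2.75% of all genes. Of 34 genes of elongation factors and Mediator, none was in it either.

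The subtelomeric genes, taken as the outermost 40 at either end of chromosome I and of chromosome II, held strain differences of both signs. Of 72 genes measured, 4 were in the unadjusted set with a positive value (5.56%, against 0.451% of all genes) and 4 with a negative one (5.56%, against 2.3%). The positive ones were *pho841*, *hhy1*, *fah1* and *eno102*, a predicted enolase with a strain difference of 0.65 ± 0.212 (SE). After quantile normalization 7 were positive and none negative. The median of the list was −0.08, which is 0.04 above that of all genes.

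The most negative value of a named gene in the comparison belonged to the subtelomeric *cmt2*, annotated as a methyltransferase. Its values were 1.28, 0.28 and 0.76 with LatA and −2.16, −0.89 and −0.28 with DMSO in *rpb1-12XS2ACTD* cells, against 1.94, 0.95 and 0.79 with LatA and −2.95, −2.98 and −2.82 with DMSO in *rpb1-12XCTD* cells. LatA raised it by 1.88 in *rpb1-12XS2ACTD* (adjusted p = 0.00793) and by 4.14 in *rpb1-12XCTD* (adjusted p = 0.000134). Here the strains were apart with DMSO, by 1.81, and overlapped with LatA, and the strain difference was −2.26 ± 0.622 (SE, adjusted p = 0.328), or −1.26 after quantile normalization. *str3*, a transporter of the siderophore-iron family, also had its larger genotype difference with DMSO. It fell by 1.65 in *rpb1-12XS2ACTD* (adjusted p = 0.00175), against a change of −0.54 in *rpb1-12XCTD* (adjusted p = 0.16). The strains were apart by 1.18 with DMSO and by 0.06 with LatA. The DMSO values were 0.99, 1.29 and 2.29 in *rpb1-12XS2ACTD* and 0.17, 0.79 and 0.07 in *rpb1-12XCTD*. Its strain difference was −1.11 ± 0.396 (SE, adjusted p = 0.426 by limma), or −0.68 after quantile normalization.

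The telomere-linked helicase gene *tlh2* is represented by a pair of probe sets, and one of them can match several genes. The strain difference was 0.52 ± 0.627 (SE) for the first and −0.47 ± 0.699 for the cross-matching one. In the first, the *rpb1-12XS2ACTD* cultures had values of 1.46, 1.85 and 1.46 with LatA and of 1.15, 3.29 and 3.19 with DMSO, against −3.11, −2.67 and −2.84 with LatA and −1.15, −1.59 and −1.44 with DMSO in *rpb1-12XCTD*. Replicate 1 of the *rpb1-12XS2ACTD* DMSO cultures was below its partners, and without it the value was −0.18. No direction of the strain difference can be given for this gene at this spread.

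Genes named for their rise in meiosis (*meu* and *mug*) were in the unadjusted set in 3 cases of positive and 3 of negative sign among 98 genes (3.06% each, against 0.451% positive and 2.3% negative over all genes). After quantile normalization 4 were positive and 1 negative. *mug133* rose by 1.03 in *rpb1-12XS2ACTD* and by 2.15 in *rpb1-12XCTD*, with a strain difference of −1.13 ± 0.312 (SE). *mug150* fell by 1.13 in *rpb1-12XS2ACTD* and by 1.87 in *rpb1-12XCTD*, with a strain difference of 0.74 ± 0.215 (SE). Both LatA changes were thus smaller in size in *rpb1-12XS2ACTD*.

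Among 34 genes of heterochromatin and RNAi, LatA raised none in *rpb1-12XS2ACTD* cells (6.13% of all genes) and 7 in *rpb1-12XCTD* cells (10.6% of all genes). Their median strain difference was −0.22, which is −0.10 relative to all genes, and 32 of 34 values were below 0, against 77.5% of all genes. It was −0.14 without replicate 1 of the *rpb1-12XCTD* DMSO cultures, −0.34 without replicate 3 and −0.09 after quantile normalization. *chp1*, a chromodomain protein of the RNA-induced silencing complex, was in the unadjusted set. It rose by 0.83 in *rpb1-12XCTD* (adjusted p = 0.00444), against a change of 0.04 in *rpb1-12XS2ACTD* (adjusted p = 0.902), with a strain difference of −0.79 ± 0.252 (SE). Replicate 1 of the *rpb1-12XCTD* DMSO cultures had the lowest *chp1* value of all 12 arrays, at −0.91. Without it the strain difference was smaller in size, at −0.54.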

How the data were processed

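RNA from 12 cultures was hybridised to Affymetrix Yeast Genome 2.0 arrays. The authors normalized the arrays by RMA and deposited log2 values for 4875 *S. pombe* probe sets. In the deposited table each probe set has a median of 0 over the arrays, a step not described in the sources used here, so no filter on dim probe sets was possible. Genes were named from the study's gene lists (2584 probe sets) or the platform annotation (1337), and 954 stayed unnamed.

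The 4 group means were fitted in 1 model with limma 3.58.1 in R 4.3.3, after tests on simulated data, and the strain difference was a contrast of this fit. P-values were adjusted over all 4875 probe sets by Benjamini-Hochberg. A call needs an adjusted p under 0.05 and a fold change, or ratio of fold changes, over 1.5. P-values rest on the spread between the 3 cultures of a group, pooled over the 4 groups into 1 variance per probe set and moderated by limma. They therefore do not follow the separate spread of each group, which was unequal. The number of arrays limits their precision. Figures were drawn with matplotlib 3.10.9 in Python 3.11.15.

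Named genes are those called or, with fewer than 5 called in a direction, those of smallest p until 10 are named, together with genes of the study's text and up to 4 members of each of 36 lists. The called and smallest-p genes were picked from probe sets that have a name and do not cross-match. The members and lists were chosen with earlier results of these data known. Alternatives were a replicate block, array and group weights, other variance models, median centring, quantile normalization, leaving out cross-matching probe sets or single arrays, and other thresholds. The following were added after seeing the data: leaving out the lowest-weight DMSO array of each strain together, the robust option without the trend, and the unadjusted count under each setting. Promoter motifs were not analysed here.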

Additional observations from a re-analysis of the deposited data

Results flagged for a closer look

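The LatA change of *nmt1* differed between the strains by the test of the difference itself, with a strain difference of 3.50 on the log2 scale (adjusted p = 0.00221 by limma). All 3 LatA treated *rpb1-12XS2ACTD* cultures lay above the other 9 cultures.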

How the results depend on the processing

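The count of genes called was 1 with the replicate block (strain difference of *nmt1* 3.50, adjusted p = 0.0373 by limma). Of 18 correlations between same-numbered replicates, 7 were over 0.1 (range −0.404 to 0.342). The LatA cultures of the strains correlated in all 3 numbers (0.342, 0.198 and 0.264), but the DMSO cultures did not (−0.13, 0.0962 and −0.322), so the numbers were not taken to pair the samples over the 4 groups. The block gave 122 genes in the unadjusted set. The count was 0 with group weights, with the limma trend and robust options and with the ordinary per-gene test, while the value of *nmt1* stayed at 3.50. An unadjusted p under 0.05 with a ratio over 1.5 was found for 126, 128 and 93 genes under these settings, and for 134 genes in the fit of the report. The trend is fitted on means of centred values, and the robust option alone called 1 gene. Quantile normalization called 19 genes and gave 2.38 for *nmt1*, and leaving out the lowest-weight DMSO array of each strain called 89, with 315 in the unadjusted set. With single arrays left out, 1 to 52 genes were called, the unadjusted set held 79 to 302, and *nmt1* had 3.23 to 3.69. The cause was not tested.

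Of 1252 values of 57 other named probe sets under the alternatives, 1174 kept their direction and side of the threshold, 47 passed it and 31 turned, in 7 probe sets. For *rpb1* the value was 0.0687 after median centring, 0.0747 after quantile normalization, 0.00968 without both low-weight arrays and −0.153 to 0.105 with single arrays left out. For *lsk1* it was −0.0953 with array weights, −0.171 without both arrays and −0.12 to 0.173 with single arrays left out. For *lsg1* it was −0.0028, −0.193 and −0.218 to 0.247, and for *cut12* −0.0265, −0.178 and −0.098 to 0.213, under the same settings. For *nsk1* it was 0.0504 after median centring, 0.169 after quantile normalization and −0.238 to 0.0792 with single arrays left out. For *tlh2* the first probe set gave −0.206 with array weights, −0.154 without both arrays and −0.177 to 0.891 with single arrays left out, and the cross-matching one 0.647 after quantile normalization.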
